A study of Mus musculus with 36 samples.

Results

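The 10 genes described here are targets of the transcription factor Nrf2 together with the pair of metal-binding proteins of the metallothionein family that most tissues express: Mt1, Mt2, Hmox1, Nqo1, Gclc, Gclm, Srxn1, Txnrd1, Slc7a11 and Sod2. They were chosen by name, and all 10 were found among the 36799 gene names on the arrays. Each is represented by the probe whose RefSeq accession belongs to the gene and whose signal was highest on average. Slc7a11 was above background on only 1 of 36 arrays and was not tested, which left 9 members among the 23256 genes tested.

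The study examined the lung response of mice to tube-shaped titanium dioxide (TiO2) nanoparticles. Female C57BL/6 mice, 5 to 7 weeks old, received a single dose into the windpipe (intratracheal instillation) of 0, 18, 54 or 162 µg of particles in 40 µl, and tissue was taken 1 or 28 days later. RNA came from random sections of the lung, so a value describes the whole piece of tissue and not a cell type. The control mice received 0 µg in the same volume. The day 1 set held 4 control mice, 3 mice at 18 µg, 3 at 54 µg and 4 at 162 µg. The day 28 set held 3 control mice and 4 at each particle dose. These are fewer than the 5 animals a group that the labels mention for RNA extraction. The p-values measure the spread between these mice. One mouse at 162 µg, replicate 1 at day 28, carries titles that say day 1 and a time label that says day 28. It was kept at day 28, and its animal number directly precedes those of the other 162 µg mice of that day. Every array held lung RNA in the red dye Cy5 and a reference RNA of 11 mouse cell lines in the green dye Cy3. A value is therefore log2 of lung over reference: it can be compared between mice for 1 gene, but not between genes.

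Nrf2 is held by its partner Keap1, which marks it for breakdown. Reactive oxygen species and electrophiles modify Keap1, Nrf2 accumulates in the nucleus with small Maf proteins, and it binds antioxidant response elements near genes for glutathione synthesis, thioredoxin reduction, quinone reduction and heme breakdown. Metallothioneins are small cysteine-rich proteins that bind zinc, copper and cadmium. Their genes are switched on by zinc through the factor MTF1 at metal response elements, and also by glucocorticoids, cytokines and oxidative stress. Both systems are commonly read as signs of oxidative or metal stress in particle-exposed lung.

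Promoters were searched for the letters of both elements. RefSeq's table for the mouse assembly GRCm38.p6 gave a promoter for 8 of the 10 members, Hmox1 and Gclc not among them, and the 250 bases before the start of each were searched on both strands. The letters searched were TGACNNNGC for the core of the antioxidant response element and TGCACNC or TGCGCNC for the core of the metal response element, which can overlap. The metal response core matched in 4 of 8 members and in 21.4% of 32851 promoters. The antioxidant core matched in 3 of 8 members and in 10.2% of all promoters. A member with several starts, as Txnrd1 with 3, counted once if any of them matched, while the shares count single promoters. The Mt2 promoter held 3 matches to the metal response core, which 1.26% of all promoters did with 3 or more, and 1 match to the antioxidant core at bases -79 to -71 from the start. It is shown in full because several results turn on Mt2, with the metal response cores in capitals, the last of them reading on the opposite strand (chr8:94172368-94172617, plus strand):
Mt2: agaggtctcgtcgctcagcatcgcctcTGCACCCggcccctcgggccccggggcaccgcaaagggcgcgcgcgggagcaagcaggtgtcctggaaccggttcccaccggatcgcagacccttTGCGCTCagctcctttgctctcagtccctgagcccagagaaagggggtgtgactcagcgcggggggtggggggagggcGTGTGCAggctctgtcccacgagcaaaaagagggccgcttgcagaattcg

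Mt1, the neighbour of Mt2 on chromosome 8, had 1 match to the metal response core. Its 30 bases (chr8:94179054-94179083, plus strand) are set beside the 30 bases of Mt2 that hold the match nearest to the start (chr8:94172556-94172585, plus strand), again with the core in capitals. In Mt2 this match reads on the opposite strand. The start given for Mt1 lies inside the annotated gene, which begins at base 94178883. Its searched window is thus mostly within the gene, unlike that of Mt2.
Mt1: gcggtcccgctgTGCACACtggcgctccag
Mt2: tggggggagggcGTGTGCAggctctgtccc

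The antioxidant core is shown for the 3 members that had it, Mt2 (chr8:94172528-94172557), Gclm (chr3:122245412-122245441) and the start numbered 2 of 3 of Txnrd1 (chr10:82859103-82859132), all on the plus strand with the core in capitals. In Gclm and Txnrd1 it reads on the opposite strand. A match is only a match of letters, and the arrays measured no binding.
Mt2: gaaagggggtgTGACTCAGCgcggggggtg
Gclm: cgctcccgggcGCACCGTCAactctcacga
Txnrd1: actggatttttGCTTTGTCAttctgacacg

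Part of the lung samples carried transcripts of neighbouring tissue. In such bulk samples, fewer cells of a type and less RNA per cell cannot be told apart. On 12 of the 36 arrays the mean log2 Cy5 signal of 14 skeletal muscle markers was 10.98 to 15.11, against 7.03 to 8.02 on the other 24. On 8 of those 12 arrays markers of squamous epithelium, the lining of oesophagus and skin, were raised as well. All 4 control mice of day 1 had a muscle array, as did 1 mouse each at 18, 54 and 162 µg at day 1, 1 mouse at 18 µg and 3 of 4 mice at 54 µg at day 28. The control and 162 µg mice of day 28 had none. Heart muscle signal also differed between groups: over 8 cardiac muscle markers the mean log2 ratio was 2.80 to 4.43 in day 1 controls, 1.03 to 1.82 at 18 µg, 1.12 to 2.63 at 54 µg and 1.61 to 4.15 at 162 µg. The median changes of these markers at day 1 were -2.62, -1.67 and -1.41 in order of dose, with 0 of 8 above 0 and 0 called. The part of cardiac tissue in the members' values was not tested. Markers of lung epithelium were above background in every group. Mean marker signals in Cy5 were 13.94 to 15.43 on the log2 scale over all mice for that list. Between 48.6% and 62.2% of the probes of an array exceeded background in Cy5, with no saturated spot.

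**Figure D1:**
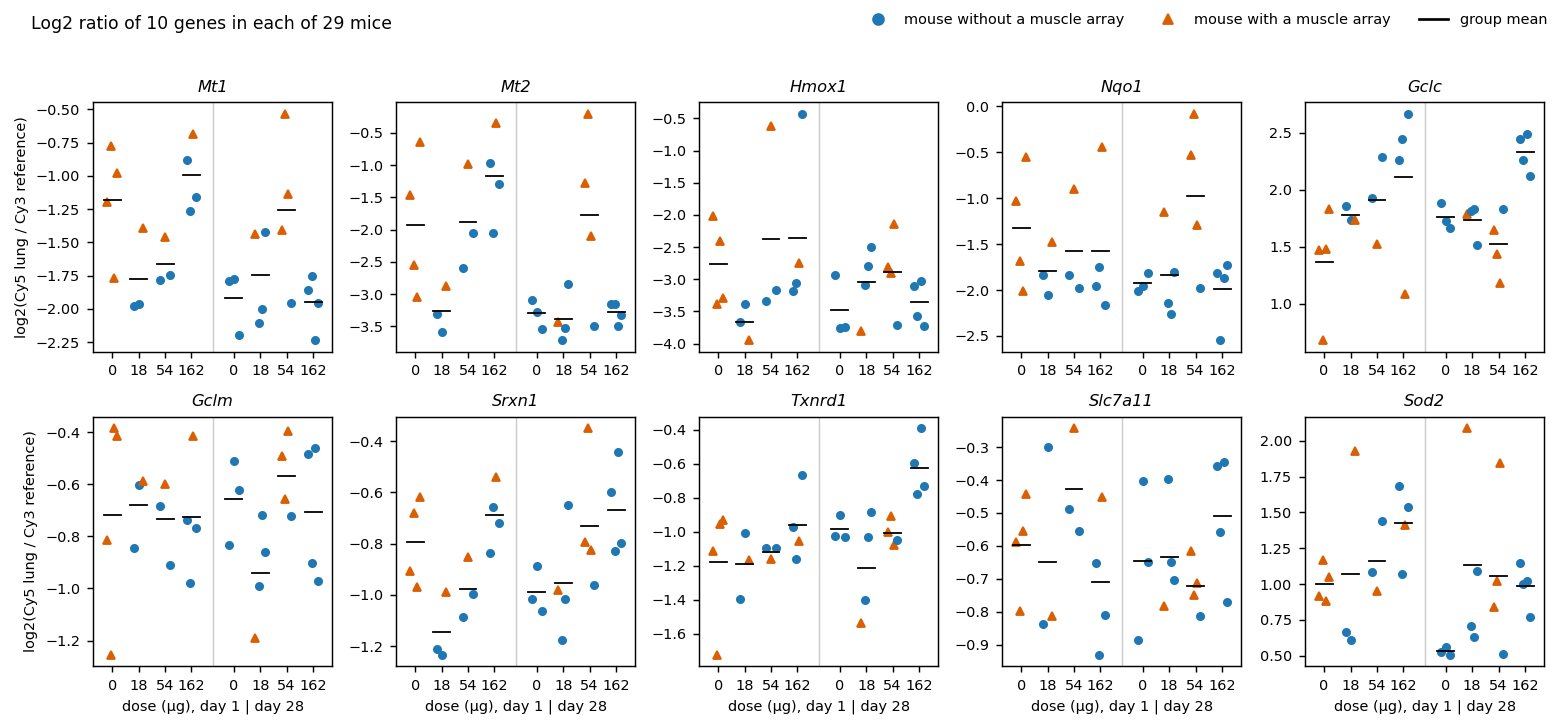
Log2 ratio of lung over reference (vertical axis) for each of the 10 genes in each of 29 mice, by dose in µg (horizontal axis), day 1 on the left and day 28 on the right of each panel. Points are mice, triangles mark mice with at least 1 muscle array and short lines are group means. For Mt2 the 4 control mice of day 1 spread from -3.05 to -0.64, while the 3 control mice of day 28 lie between -3.53 and -3.09.

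Against this background, no member's change after TiO2 passed the adjusted test. Gclc, the catalytic subunit of the enzyme that starts glutathione synthesis, had the highest ratios at 162 µg on both days, at 0.75 and 0.57 log2 units over control. Srxn1, Txnrd1 and Sod2 lay above all controls at 162 µg at day 28. The metallothioneins were higher at 162 than at 18 µg at day 1, but their controls spread over both.

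Comparisons used limma's moderated test on all 8 groups with Benjamini-Hochberg adjustment over all 23256 genes, and a gene was called at an adjusted p under 0.05. Of the 9 tested members 0 were called in any of 18 comparisons. The share of all genes called against control was 0% at 18 µg, 0.0516% at 54 µg and 1.69% at 162 µg at day 1. At day 28 it was 0% at 18 µg, 0% at 54 µg and 0.628% at 162 µg. For the trend with dose it was 2.6% at day 1 and 0.507% at day 28. The members' count is near these shares.

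At an unadjusted p under 0.05, limma placed 1 of 9 members higher at 162 µg at day 1, where 8.78% of all genes were so placed, and 3 of 9 higher at 162 µg at day 28, against 3.42% of all genes. At 54 µg at day 28 it was 3 of 9 higher, against 3.03% of all genes, and at 18 µg at day 1 it was 3 of 9 lower, against 1.91%. At 54 µg at day 1 and 18 µg at day 28 it was 0 of 9, where 7.6% and 4.33% of all genes differed in either direction. All 4 control mice of day 1 and 3 of the 4 mice at 54 µg at day 28 had a muscle array. Members such as Mt1 and Mt2 also varied together between mice (r = 0.84 over all 29), so the counts are not of independent genes. In the dose trends 2 of 9 were higher at day 1 and 2 of 9 at day 28, against 9.72% and 3.32% of all genes. The median log2 change of the 9 members was 0.22 at 162 µg at day 1, where the median of all genes was 0.0065. At 162 µg at day 28 it was 0.12 with a median of all genes of 0.0004.

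Between doses the adjusted test called 2.05% of all genes for 162 against 18 µg, 0.0043% for 162 against 54 µg and 0.0172% for 54 against 18 µg at day 1. The members at an unadjusted limma p under 0.05 were 4, 2 and 1 of 9, all higher at the higher dose, where 7.71%, 3.05% and 1.94% of all genes were. At day 28 the shares called were 1.02%, 1.01% and 0% in the same order. There 3 of 9 members were higher at 162 than at 18 µg and 3 of 9 higher at 54 than at 18 µg, against 8.32% and 3.04% of all genes. For 162 against 54 µg, 2 of 9 were higher and 3 of 9 lower, against 8.05% and 4.44%.

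**Figure D2:**
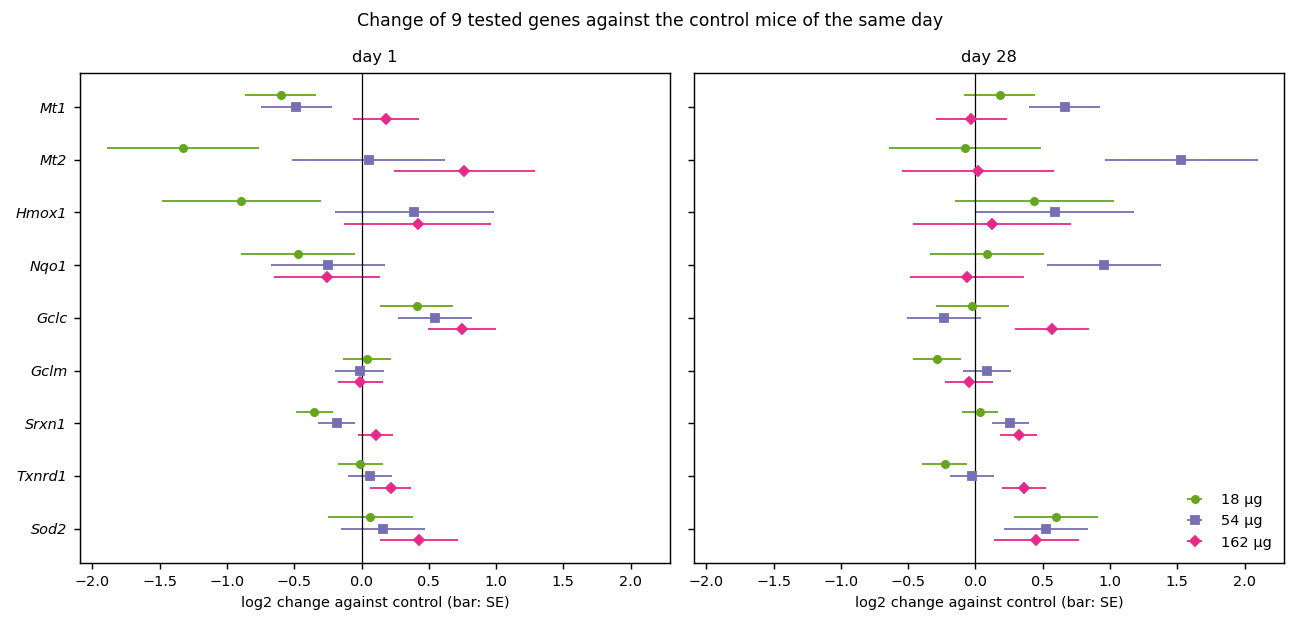
Log2 change against the control mice of the same day (horizontal axis) for the 9 tested genes (vertical axis), with day 1 in the left panel and day 28 in the right. Symbols are doses and bars are standard errors from limma. Gclc is the gene whose change exceeds 0.5 at 162 µg on both days, at 0.75 and 0.57, and none of the changes passed the adjusted threshold.

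Mt2 encodes the second of the widely expressed isoforms. At day 1 the 4 control mice had Mt2 log2 ratios of -1.46, -2.56, -3.05 and -0.64. The 3 mice at 18 µg had -3.31, -3.58 and -2.87, the 3 mice at 54 µg had -2.59, -0.99 and -2.05, and the 4 mice at 162 µg had -0.96, -2.05, -0.35 and -1.30. All 4 mice at 162 µg lay above all 3 mice at 18 µg, while the control mice overlapped both groups. In limma the difference of 162 µg from control was 0.76 with a standard error of 0.52 (adjusted p = 0.58, higher than the control mean in 3 of 4 mice), and the 95% interval reached from -0.32 to 1.84. At 18 µg the difference from control was -1.33 ± 0.57 (SE, limma adjusted p = 0.91). Without muscle arrays it was -0.58 against the lone control. The difference of 162 µg from 18 µg was 2.09 ± 0.57 (SE), at an adjusted limma p of 0.054. Mt2, Mt1, Hmox1 and Srxn1, 4 of 9 members, were higher in all mice at 162 µg than in all at 18 µg, a separation that 7.75% of all genes showed. Without the muscle arrays the difference of Mt2 was 2.01 (limma adjusted p = 0.0016), and with the slide as a block its adjusted p was 0.10. Dose pairs were refitted only without muscle or squamous arrays, with the muscle and squamous scores as covariates, and with the slide as a block. Over these the adjusted limma p of Mt2 ranged from 0.00051 to 0.10. Other normalizations and leaving out single mice were not tried for dose pairs.

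For day 28 the Mt2 values of the 3 control mice were -3.09, -3.28 and -3.53 and those of the 4 mice at 162 µg were -3.15, -3.15, -3.50 and -3.33. These groups lay on top of each other: the difference was 0.02 with a standard error of 0.57. At 54 µg the values were -1.28, -0.20, -2.10 and -3.50. The 3 high mice at that dose are the 3 with a muscle array, all of which also carried the squamous signal, and the mouse without one had the lowest value. The difference of 54 µg from control was 1.53 ± 0.57 (SE) and did not pass the test (limma adjusted p = 0.75). Without the muscle arrays it was -0.20, resting on 1 mouse at 54 µg.

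Mt1, the other widely expressed isoform, followed Mt2 only in part. At 54 µg against control at day 1 Mt1 changed by -0.48 and Mt2 by 0.05. At day 1 the Mt1 log2 ratios were -1.19, -0.77, -1.77 and -0.98 in control mice, -1.98, -1.96 and -1.40 at 18 µg, -1.78, -1.46 and -1.75 at 54 µg and -0.88, -1.26, -0.68 and -1.16 at 162 µg. All 4 mice at 162 µg lay above all mice at 18 and 54 µg, and they overlapped the controls. The difference of 162 µg from control was 0.18 ± 0.24 (SE) and that from 18 µg was 0.78 ± 0.26 (limma adjusted p = 0.82 and 0.16). At day 28 the group means were -1.92 ± 0.24 (SD, n = 3) in controls, -1.74 ± 0.36 at 18 µg, -1.26 ± 0.59 at 54 µg and -1.95 ± 0.21 at 162 µg (n = 4 each). The mean at 54 µg stood highest, with its 3 mice that had a muscle array above the remaining one. A dimmer Mt1 probe that the array names by a predicted transcript changed by 0.58 ± 0.17 (SE) at 162 µg against control at day 1, where the brighter one changed by 0.18. At 54 µg against control at day 1 the dimmer probe changed by 0.34 ± 0.18 (SE) and the brighter one by -0.48. For 162 against 18 µg at day 1 they gave 0.79 and 0.78. The probes disagree in size at 162 µg and in direction at 54 µg against control, and only the brighter one entered the counts.

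Mt1 and Mt2 moved together between mice in both sets. Pearson's r between them was 0.91 (Spearman's rho 0.90) over the 18 mice without a muscle array and 0.62 (rho 0.62) over the 11 mice with one. Both pool the dose and day groups, so differences between groups enter them. With the group means taken out, r over all 29 mice was 0.74. These are descriptions of mice that share slides, and no test was made of them. Among the tested genes whose log2 ratios were most like those of Mt2 over all 29 mice were Aif1l and Nhp2, at r of 0.93 and 0.92. For Mt1 the 3 most alike were Mif, Ppp1r14b and Dnph1, at r of 0.90, 0.89 and 0.85. Among the 18 mice without a muscle array these values were 0.83 and 0.88 for Mt2 and 0.89, 0.86 and 0.85 for Mt1. With the group means taken out over all 29 mice they were 0.86 and 0.85 for Mt2 and 0.86, 0.85 and 0.74 for Mt1.

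One mouse was measured with and without the muscle signal, on 2 arrays that also differed in slide and scan session. Control replicate 1 of day 1 was measured on 2 arrays, with a muscle score of 7.40 on the first and 14.52 on the second. Between them the Mt2 log2 ratio went from -2.86 to -0.06 and Hmox1 from -3.28 to -0.75. Nqo1 went from -1.91 to -0.16 and Mt1 from -1.71 to -0.68, while Gclc was 1.52 on the first and 1.42 on the second. For the mice on 2 arrays, 7 in all, the median difference between arrays of 1 mouse was 0.46 for Mt2 and 0.22 for Gclc.

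Mt2 was high on the arrays with squamous signal rather than on those with muscle alone. On the 4 arrays with muscle but no squamous signal it lay between -3.44 and -2.56, within the range of the 24 arrays without muscle, -3.72 to -0.73. On the 8 arrays with both signals it lay between -2.57 and 0.02, with a median of -0.50. Mt4, the metallothionein of stratified squamous epithelium and named here after its values were seen, lay between -0.83 and -0.13 on the 28 arrays without squamous signal and between 2.56 and 6.81 on the 8 with it. Nqo1 showed the same order, with medians of -1.93, -1.58 and -0.49 on arrays without muscle, with muscle and with both. The part of squamous epithelium in the results of the members was not tested beyond these values and the fits without those arrays.

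**Figure D3:**
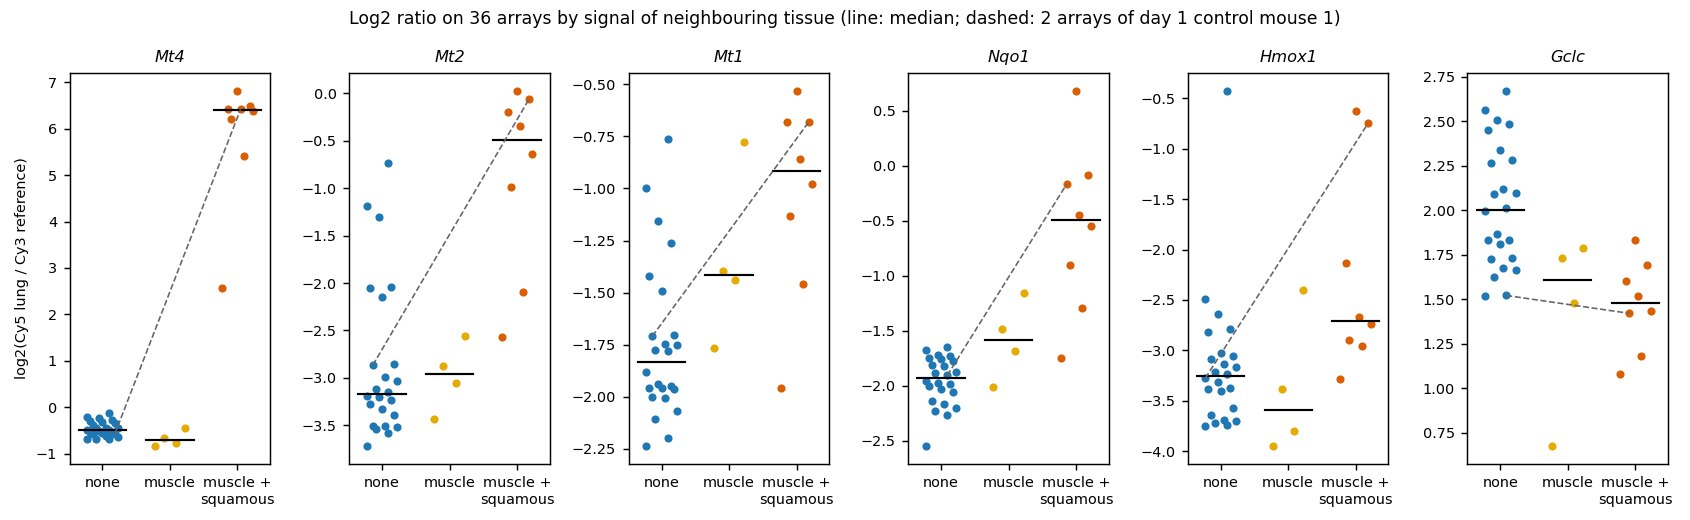
Log2 ratio (vertical axis) of 6 genes on the 36 arrays, grouped on the horizontal axis into 24 arrays without muscle signal, 4 with muscle signal and 8 with muscle and squamous signal. Points are arrays, lines are medians and the dashed line joins the 2 arrays of control replicate 1 at day 1. Mt4 exceeds 2 only on the 8 arrays with squamous signal, and Gclc has its highest median, 2.00, on arrays without muscle.

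Leaving arrays out changed what could be seen at day 1, at the price of mice. Without the 12 muscle arrays 1 control mouse, measured on 1 array, remained at day 1, with 2, 2 and 3 mice at 18, 54 and 162 µg, and the control's spread is then taken from the other groups. Mt2 was -2.86 in that control, -3.31 and -3.58 at 18 µg, -2.59 and -2.05 at 54 µg and -0.96, -2.05 and -1.30 at 162 µg. The mice at 54 µg lay above those at 18 µg, and 2 of 3 at 162 µg above both at 54 µg. In limma without these arrays Mt2 was called in the dose trend, at 0.54 ± 0.11 (SE) per step of dose (adjusted p = 0.021). Its change at 162 µg against the lone control was 1.43 ± 0.36 (adjusted p = 0.058). Without the squamous arrays only, a choice made after seeing the data, it was 1.39 ± 0.26 (adjusted p = 0.0058) with 3 mice in each of the groups. Over all settings tried the adjusted p of this change ran from 0.0058 to 0.84, and in all 25 of them the change was above 0.

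Hmox1, which encodes the inducible enzyme that breaks heme down to biliverdin, iron and carbon monoxide, was set by single mice. At day 1 its log2 ratios were -2.01, -3.38, -2.40 and -3.28 in controls and -3.66, -3.38 and -3.95 at 18 µg. They were -3.34, -0.62 and -3.16 at 54 µg and -3.18, -3.06, -2.74 and -0.43 at 162 µg. One mouse at 54 µg and one at 162 µg stood more than 2 log2 units above the others of their dose. The first had a muscle and squamous array, and the second, replicate 4, had no muscle array. The change at 162 µg was 0.42 ± 0.55 (SE, limma adjusted p = 0.82) and became -0.22 without that replicate. At day 28 the group means were -3.48 ± 0.47 (SD, n = 3) in controls, -3.04 ± 0.56, -2.89 ± 0.64 and -3.36 ± 0.34 at 18, 54 and 162 µg (n = 4 each), and all doses overlapped the controls.

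Nqo1, the quinone reductase often used as a readout of Nrf2, hardly differed between doses on arrays of lung without muscle. On these arrays the group means were -1.91 in the 1 control mouse of day 1 and -1.94, -1.91 and -1.96 at 18, 54 and 162 µg. At day 28 they were -1.93, -2.07, -1.98 and -1.99 in the same order. The probe was dim there: in the day 28 control and 162 µg mice its mean log2 Cy5 signal was 7.49 and 7.67. The offset of the background correction can shrink ratios at such signal, so these means cannot decide whether Nqo1 changed. With all arrays the means at day 1 were -1.32 ± 0.66 (SD, n = 4), -1.79 ± 0.29 (n = 3), -1.57 ± 0.59 (n = 3) and -1.58 ± 0.78 (n = 4). The change at 162 µg was -0.26 ± 0.39 (SE) at day 1 and -0.06 ± 0.42 at day 28. At 54 µg at day 28 the mice had -0.53, -0.08, -1.29 and -1.98 against a mean of -1.93 ± 0.097 (SD, n = 3) in controls, a difference of 0.96 ± 0.42 (limma adjusted p = 0.75), and the 3 high mice are again those with muscle arrays. Without these arrays the difference was -0.05.

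Glutathione synthesis begins with glutamate-cysteine ligase, whose catalytic subunit is Gclc and whose modifier subunit is Gclm. The log2 ratios of Gclc at day 1 were 1.47, 0.68, 1.48 and 1.83 in controls, 1.86, 1.73 and 1.73 at 18 µg, 1.93, 1.52 and 2.28 at 54 µg and 2.26, 2.45, 1.08 and 2.67 at 162 µg. Replicate 3 at 162 µg, which had a muscle and squamous array, was the one mouse of that group below the control mean. Its day 28 values were 1.89, 1.73 and 1.67 in controls and 2.45, 2.26, 2.49 and 2.12 at 162 µg, and these groups did not overlap. The mice at 18 and 54 µg of that day reached up to 1.83 and lay below all those at 162 µg.

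The change of Gclc at 162 µg was 0.75 ± 0.25 (SE, limma adjusted p = 0.16, 95% interval 0.23 to 1.27) at day 1 and 0.57 ± 0.27 (adjusted p above 0.99, interval 0.0068 to 1.13) at day 28. The difference between these changes was -0.18 ± 0.37, and so could not be told from 0. Without replicate 3 at 162 µg the change at day 1 was 1.09 and passed the test (limma adjusted p = 0.0021). Without the muscle arrays it was 0.94 ± 0.20 (adjusted p = 0.024), and without the squamous arrays it was 1.23 ± 0.18 (adjusted p = 0.00082). Over all settings the adjusted p ran from 0.00082 to 0.56 and the change from 0.52 to 1.23. At day 28 the groups compared hold no muscle array, and leaving muscle arrays out moved only the shared spread: the change of 0.57 then had an adjusted limma p of 0.0497, and the range over all settings was 0.0475 to above 0.99. On arrays without muscle the mean at day 1 was 1.52 in 1 control mouse, 1.80 at 18 µg, 2.11 at 54 µg and 2.46 ± 0.21 (SD, n = 3) at 162 µg. At day 1 control treatment and muscle signal cannot be told apart beyond the 1 clean array of control replicate 1, since all 4 control mice had a muscle array.

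**Figure D4:**
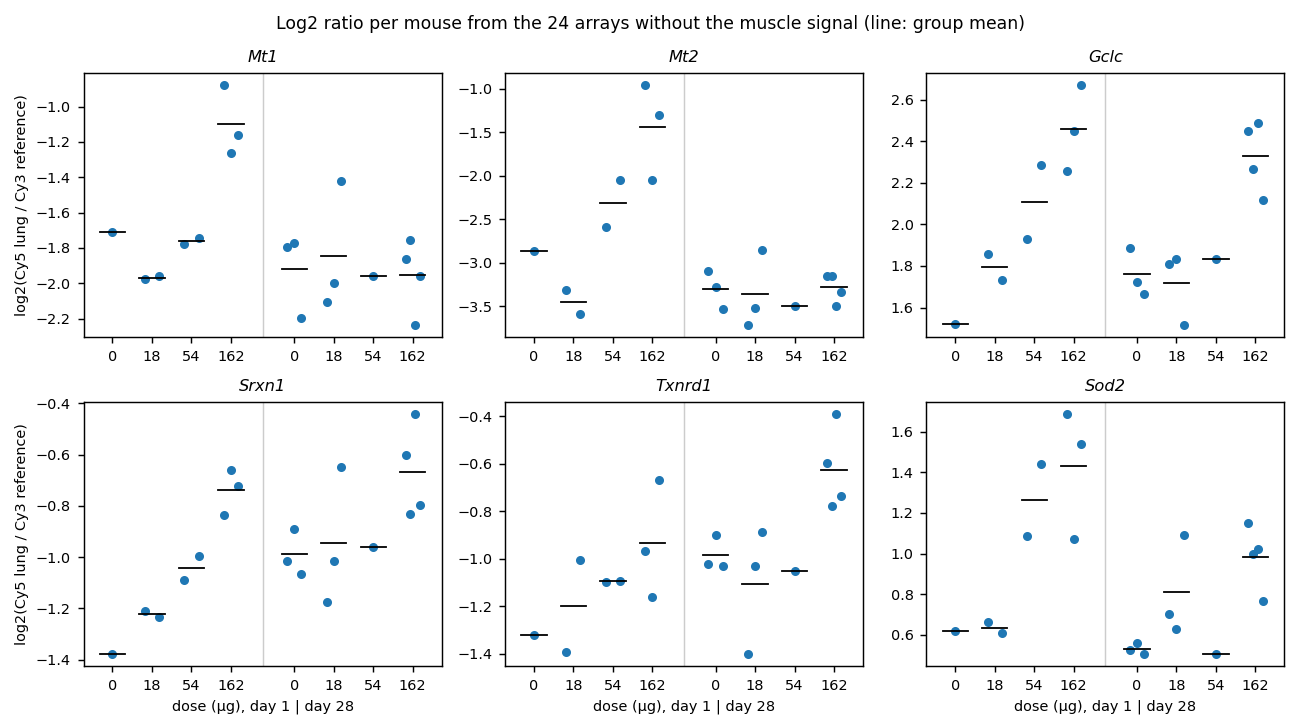
Log2 ratio per mouse (vertical axis) of 6 genes from the 24 arrays without muscle signal, by dose in µg (horizontal axis), with day 1 on the left and day 28 on the right of each panel. Points are mice and lines group means. The 3 mice at 162 µg at day 1 lie above the 2 at 18 µg in the panels of Mt1, Mt2, Gclc, Srxn1 and Sod2, and the lone point at 0 µg at day 1 is 1 array of 1 mouse.

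Gclm and Slc7a11 gave no such pattern. Gclm group means lay between -0.94 and -0.57 over the 8 groups, and its change at 162 µg was -0.01 ± 0.17 (SE) at day 1 and -0.05 ± 0.18 at day 28. The 95% interval at day 1 was -0.35 to 0.33. The Gclm probe was dim, with a mean log2 Cy5 signal of 7.19 against 12.44 for Gclc. The offset of the background correction can shrink ratios at low signal. The interval therefore cannot decide whether Gclm changed as much as Gclc. Slc7a11, the cystine importer that supplies cysteine for glutathione, was above background on 1 array at 162 µg at day 28 and on no array of the other groups, so its ratios carry no information on dose.

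Srxn1 and Txnrd1 encode enzymes of the thioredoxin system. Sulfiredoxin repairs overoxidised peroxiredoxins, and thioredoxin reductase keeps cytosolic thioredoxin reduced. Both were higher at 162 µg at day 28, by less than the adjusted test could call. Srxn1 was -1.01, -0.89 and -1.06 in controls and -0.60, -0.83, -0.44 and -0.80 at 162 µg, a difference of 0.32 ± 0.14 (SE, limma adjusted p = 0.84). Txnrd1 was -1.02, -0.90 and -1.03 in controls and -0.60, -0.78, -0.39 and -0.73 at 162 µg, a difference of 0.36 ± 0.17 (adjusted p = 0.97). In both genes all 4 treated mice lay above all 3 controls. This held for 4 of 9 members at 162 µg at day 28, namely these, Gclc and Sod2, where 5.91% of all genes were so separated. On the slides that held both groups, the difference at 162 µg was above 0 on 4 of 4 slides for each of these 4 genes. Slides 1 and 5 held the same control mouse and the same treated mouse, replicate 1 of each group. Since these genes were picked for groups that do not overlap, the slide signs were largely fixed beforehand and add no support.

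Against 18 µg, Txnrd1 at 162 µg at day 28 differed by 0.59 ± 0.15 (limma adjusted p = 0.070), and with the slide as a block by 0.69 ± 0.14 (adjusted p = 0.018). At day 1 Srxn1 was lower at 18 µg, at -1.21, -1.23 and -0.99, than in controls, at -0.91, -0.68, -0.97 and -0.62. That difference was -0.35 ± 0.14 and did not pass (adjusted p = 0.91), and the groups did not overlap. Without muscle arrays it was 0.16, the opposite sign, against the lone control. Hmox1 was the other member that was wholly lower at 18 µg at day 1, where 2.78% of all genes were so separated. A dimmer Hmox1 probe changed by -0.20 ± 0.26 (SE) in that comparison, and the brighter one by -0.89. All day 1 controls had muscle arrays. Txnrd1 at day 1 changed by 0.22 ± 0.15 at 162 µg.

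Sod2, the manganese superoxide dismutase of mitochondria, is known as a target of NF-κB. At day 1 its log2 ratios were 0.92, 1.17, 0.88 and 1.05 in controls, 0.66, 0.61 and 1.93 at 18 µg, 1.09, 0.95 and 1.44 at 54 µg and 1.69, 1.07, 1.41 and 1.54 at 162 µg. The change at 162 µg was 0.43 ± 0.29 (SE, limma adjusted p = 0.58), with 4 of 4 mice above the control mean and overlap with the controls. At day 28 the 3 controls lay between 0.51 and 0.56 and the 4 mice at 162 µg between 0.77 and 1.15, a change of 0.45 ± 0.31 (adjusted p above 0.99). The mice at 18 µg of that day were also all above the controls, the highest at 2.09 being the one with a muscle array, where 1.9% of all genes were so separated. On the 4 arrays with muscle alone the median of Sod2 was 1.55, against 0.81 on the 24 without. With the muscle and squamous scores as covariates the change at 162 µg at day 1 was 0.83 ± 0.22 (adjusted p = 0.046), and over all settings the adjusted p ran from 0.027 to 0.80.

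The dose trend, a single slope over the 4 dose ranks, did not call any member. At day 1 the steepest were Mt2, at 0.37 ± 0.17 (SE) per step, and Hmox1 and Gclc, at 0.25 ± 0.18 and 0.24 ± 0.08 (limma adjusted p = 0.31, 0.54 and 0.13). At day 28 all 9 members had a trend above 0, the median being 0.12 against 0.0023 over all genes. Srxn1 and Txnrd1 had unadjusted p-values of 0.011 and 0.021 there in limma. For Mt1, Mt2 and Nqo1 the day 28 mean stood highest at 54 µg, where 3 of 4 mice had muscle arrays, and at 162 µg it lay near the control mean. At 162 µg at day 28 the change was above 0 in 6 of 9 members. The days share no mice. The test of the difference between days called 0%, 0% and 0.0258% of all genes at 18, 54 and 162 µg and none of the 9 members. At an unadjusted limma p under 0.05 there was 1 member at 18 µg (Mt1) and 2 at 54 µg (Mt1 and Srxn1), all upwards, where 1.9% and 4.1% of all genes were, and 0 at 162 µg, where 3.87% were in either direction. In control mice alone, where 0% of all genes were called, Mt2 was lower at day 28 than at day 1 by -1.37 ± 0.57 and Mt1 by -0.74 ± 0.26, and neither passed the test (limma adjusted p = 0.78). These were the 2 of 9 members lower at an unadjusted p under 0.05, against 1.95% of all genes. With Sod2 they were the 3 of 9 whose day 28 controls all lay below the day 1 controls, against 5.98%. The controls of day 1 all had muscle arrays and those of day 28 none.

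Genes around the members were read from lists of zinc handling, Nrf2 regulation, other Nrf2 targets and other antioxidant enzymes. Of 12 genes of metallothionein and zinc handling, 1 rose and 0 fell at 162 µg at day 1, and 2 rose with dose, where 1.5% and 2.24% of all genes rose. These were Slc39a14 and Slc39a1, importers of zinc, and Slc39a14 is known as an acute-phase gene that also carries iron. Slc39a14 was -1.84, -2.02, -1.83 and -1.81 in controls of day 1 and -0.63, -0.88, -1.24 and -0.93 at 162 µg, a rise of 0.95 ± 0.13 (limma adjusted p = 0.00013), or 1.94-fold. The groups did not overlap, an upward separation that 4.22% of all genes showed, and the call held with each of the 8 mice left out. The change was 0.98 without muscle arrays, against the lone control. With median centring it was 1.01 (limma adjusted p = 0.0062). Slc39a1 rose by 0.17 ± 0.05 per dose step (limma adjusted p = 0.040), a call that was lost in 7 of 14 fits that leave out 1 mouse, without muscle arrays (adjusted p = 0.086), with the slide as a block (0.059) and with median centring (0.094). The median change of the list at 162 µg at day 1 was 0.15 and that of all genes 0.0065. None of the 12 was called at day 28 in limma, in any comparison with control or in the trend.

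Of 8 regulators of Nrf2, including Nfe2l2 for Nrf2 itself and Keap1, none was called against control on either day, and 1 had a dose trend at day 1, where 2.24% of all genes rose. This was Maff, a small Maf protein, with a slope of 0.21 ± 0.05 (limma adjusted p = 0.023). Without muscle arrays the slope of Maff was 0.06 and was not called, and without replicate 2 at 162 µg its adjusted p was 0.10. It was 0.11 without squamous arrays, 0.052 with both scores as covariates and 0.12 with median centring. The median change of the 8 at 162 µg was 0.13 at day 1 and 0.17 at day 28.

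Of 34 other Nrf2 targets tested, 1 rose and 4 fell at 162 µg at day 1, while 1.5% of all genes rose and 0.193% fell. Fth1, the heavy chain of the iron store ferritin, rose. It was -0.12, -0.64, 0.24 and -0.10 in controls and 0.83, 0.91, 0.13 and 0.68 at 162 µg, a rise of 0.79 ± 0.17 (limma adjusted p = 0.012), and the mouse at 0.13 is replicate 3 with the muscle array. The 4 that fell are detoxifying enzymes. Gsta3, a glutathione transferase abundant in club cells and liver, was 3.97, 4.14, 4.67 and 4.19 in controls and 3.15, 3.58, 2.91 and 3.19 at 162 µg, a fall of -1.04 ± 0.20 (adjusted p = 0.0047). The transferases Gstm1 and Gstm2 changed by -0.83 ± 0.15 and -0.44 ± 0.09, and the epoxide hydrolase Ephx1 by -0.67 ± 0.14, with adjusted p of 0.0034, 0.0090 and 0.010 in the same limma fit. The groups of Gsta3, Gstm2 and Ephx1 did not overlap, a downward separation that 1.76% of all genes showed. Gsta3, Gstm1, Ephx1 and Fth1 were also called without the muscle arrays, and Gstm2 was not (adjusted p = 0.089). With arrays only centred on their median instead of loess, none of these 5 changes was called: Gsta3 was -0.76, Gstm1 -0.52, Ephx1 -0.34, Gstm2 -0.15 and Fth1 1.16, with limma adjusted p from 0.10 for Fth1 to 0.87 for Gstm2. That scaling moved the median of all genes to 0.10 and the share of called genes that rose from 88.6% to 99.4%. Over the scalings, fits and array choices run for these genes, all 5 kept their direction. Gstm2 was also not called with the scanner software's signals (adjusted p = 0.067), nor Ephx1 in the authors' value table (0.052). Leaving out 1 mouse at a time lost Fth1 in 3 of 8 fits, Ephx1 in 2 and Gstm2 in 1. Of 10 markers of lung epithelium 0 were called in the same comparison, 3 were above 0 and the median was -0.15. The part of epithelial cells in these changes was not tested.

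At day 1 the dose trend called the same 5 genes of this list and Akr1b8, an aldo-keto reductase outside the naming rule that is named after its value was seen, at 0.21 ± 0.05 per step (limma adjusted p = 0.019). The trend rose in 2 of 34 and fell in 4 of 34, against 2.24% and 0.357% of all genes. The trend of Akr1b8 was called in 9 of 14 fits that leave out 1 mouse. With median centring Fth1 kept its trend call (adjusted p = 0.039), and those of Akr1b8 (0.11), Gsta3 (0.35), Gstm1 (0.55), Ephx1 (0.66) and Gstm2 (0.88) were lost. That of Gstm2 was also lost without muscle arrays (0.074) and with the scanner software's signals (0.068). By day 28 the 4 enzymes that had fallen were not called, and 1 of 34 rose at 162 µg. This was Osgin1, an oxidative stress-induced growth inhibitor, which was 0.26, 0.30 and -0.08 in controls and 1.25, 0.45, 1.30 and 1.37 at 162 µg, a rise of 0.93 ± 0.20 (limma adjusted p = 0.020), or 1.91-fold. The groups did not overlap, an upward separation that 5.91% of all genes showed at that dose and day. The call held in 1 of 7 fits that leave out 1 mouse and not with median centring (limma adjusted p = 0.26). The trend of day 28 called Osgin1 too, at 0.28 ± 0.06 per step (limma adjusted p = 0.038), in 5 of 15 fits that leave out 1 mouse and not without muscle arrays (adjusted p = 0.19) or squamous arrays (0.14). It was also lost with the slide as a block (0.055), the scanner software's signals (0.058), the authors' value table (0.052) and median centring (0.41). The median change of the 34 at 162 µg was -0.11 at day 1 and 0.05 at day 28.

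Of 16 further enzymes of superoxide, peroxide and glutathione metabolism none was called against control, and 1, the peroxiredoxin Prdx4 of the endoplasmic reticulum, had a dose trend at day 1 of 0.16 ± 0.04 (limma adjusted p = 0.030), where 2.24% of all genes rose. It was called in 7 of 14 fits that leave out 1 mouse and not without muscle arrays (adjusted p = 0.084), with median centring (0.13), the scanner software's signals (0.060) or the authors' value table (0.052). Their median change at 162 µg was -0.04 at day 1 and -0.03 at day 28. At 54 and 18 µg no gene of the 4 lists was called on either day.

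**Figure D5:**
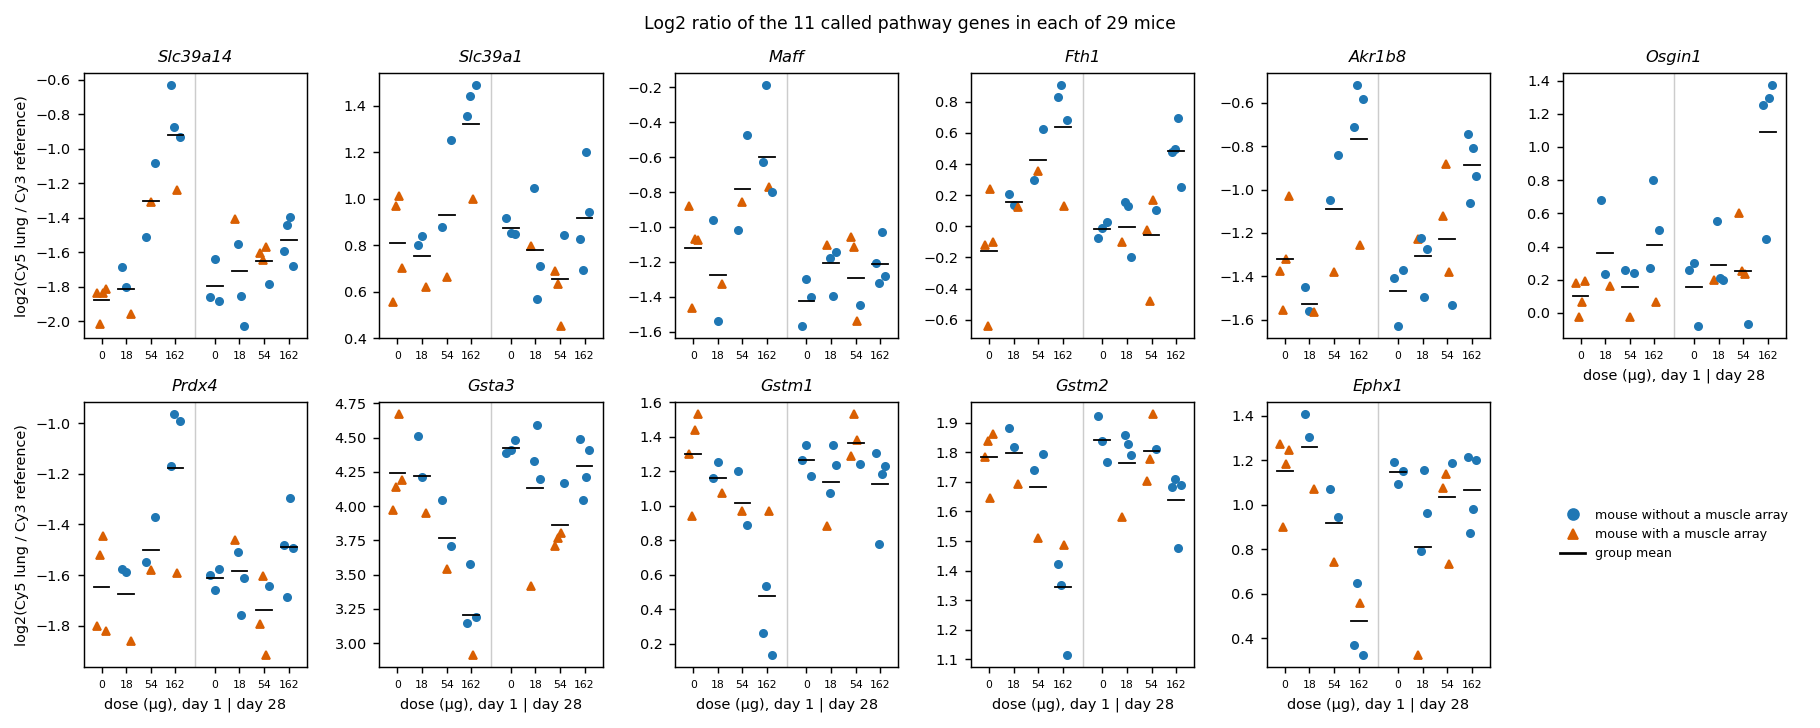
Log2 ratio (vertical axis) of the 11 pathway genes called in a comparison with control or a dose trend, in each of 29 mice by dose in µg (horizontal axis), with day 1 on the left and day 28 on the right of each panel. Triangles mark mice with a muscle array and lines are group means. Slc39a14 at 162 µg at day 1 lies between -1.24 and -0.63, above all 4 controls, and Gsta3 lies between 2.91 and 3.58, below all 4.

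A few markers of inflammatory cells were called at the same dose. At 162 µg at day 1, 1 of 10 neutrophil markers (Mmp8, by 1.01) and 1 of 9 monocyte and recruited macrophage markers (Cd14, by 0.99) rose, named after their values were seen, against 1.5% of all genes. The median changes of the lists were 0.45 and 0.49, and at day 28 none of either list was called, with medians of 0.28 and 0.72. The mean log2 ratio of the neutrophil markers was 1.58 to 2.55 in day 1 controls and 2.46 to 2.83 at 162 µg. For the monocyte and recruited macrophage markers it was 0.70 to 1.22 and 1.26 to 1.79. Of 10 alveolar macrophage markers 1, Ear2, fell at that dose and day, by -0.98, against 0.193% of all genes, with a median of -0.51 over the list. The part of these cells in the results of the members and their pathway genes was not tested.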

How the data were processed

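Lung RNA of 29 mice was read on 36 two-colour Agilent arrays, 7 mice on 2 arrays each. The images were read by the authors with Agilent's Feature Extraction software, version 11.0.1.1 per the file headers. It gives spot and background intensities in both dyes, processed intensities and a deposited log10 ratio of Cy5 over Cy3. The value table deposited by the authors holds log2 ratios whose normalization is not given in the sources used here. It correlated at r = 0.986 to 0.997 per array, across probes, with the ratios computed here, and its columns had medians of -0.039 to -0.017.

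Median spot intensities were background-corrected with normexp (offset 50), normalized by loess within arrays and averaged per probe and per mouse, with limma 3.58.1 in R 4.3.3. Lung RNA was always in Cy5, so a dye effect is shared by all groups. The plan named mean spot intensities, and the files give medians. Probes were named through RefSeq accessions and GRCm38.p6, which named 28026 of 55681. The array design uses another build, and no gene coordinates were taken from that table. A gene was tested if 3 or more mice of some group had it above background in Cy5 on all their arrays. All mice entered one two-sided model of 8 group means, with 21 residual degrees of freedom, and was tested on simulated data. A muscle array has a mean log2 Cy5 above 9 over the muscle markers, and a squamous signal is defined in the same way.

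The members, lists, rule for muscle arrays and tests were chosen with earlier results of these data known. All 10 members are described. Of each pathway list every gene called against control or in a dose trend was named, at most 6, and for Mt1 and Mt2 the 3 genes of highest r, of which 1 is not reported here. The alternatives were other background and array normalizations, filters and probes, slide, random mouse and quality weight terms, arrays left out or adjusted for, the disputed mouse, and each mouse left out.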

Additional observations from a re-analysis of the deposited data

Results flagged for a closer look

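In 50 combinations of a member and a group of 4 mice, 2 held a mouse far from the other 3, and chance gives about 1 in 20. Hmox1 at 162 µg at day 1 had a log2 ratio of -0.43 in replicate 4, against -2.74 in the next mouse, with no muscle array in that mouse. Gclc at 18 µg at day 28 was 1.52 in replicate 4 and 1.79 in the next.

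The change of Srxn1 at 54 µg against control went down in 3 of 3 mice at day 1 and up in 4 of 4 mice at day 28. The difference between days was 0.44 ± 0.19 (SE) and did not pass the test after adjustment (limma adjusted p = 0.49). In these groups all 4 day 1 controls and 3 of the 4 mice at 54 µg at day 28 had muscle arrays. Without muscle arrays the changes were 0.34 at day 1, the opposite sign, and 0.03 at day 28, with a difference of -0.31 ± 0.27 (limma adjusted p above 0.99). Within single slides, of which slides 1 and 5 held the same mice, the change lay above 0 on 2 of 4 at day 1 and 3 of 4 at day 28.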

How the results depend on the processing

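In 11 results, each a count of members called against control, by dose trend or between days, 0 of 9 were called. This held in every setting for 5 of them. At 162 µg at day 1 the count was 1 with the mouse as a random block (Gclc), 3 with array quality weights (Nqo1 down, Gclc and Sod2 up), 1 without muscle arrays (Gclc), 2 without squamous arrays (Mt2 and Gclc) and 1 with both scores as covariates (Sod2), and 0 to 1 when each mouse was left out. In the day 1 trend these counts were 1, 2, 3, 2 and 2, and 0 to 1. With array quality weights it was 2 at 54 µg at day 28 (Mt2, Nqo1), 1 at 162 µg at day 28 (Gclc), 2 in the day 28 trend (Srxn1, Txnrd1) and 4 in the difference between days at 54 µg. Without muscle arrays it was 1 at 162 µg at day 28 (Gclc). The cause was not tested. Since no member was called in the fit reported, no call turned sign, but several changes crossed 0 between settings. At 162 µg at day 1 Mt1 ran from -0.01 to 0.61, Hmox1 from -0.23 to 1.06 and Nqo1 from -0.80 to 0.17. At 54 µg at day 28 Mt2 ran from -0.20 to 2.11 and Nqo1 from -0.05 to 1.29.

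Genes called ranged from 38 to 3166 around 394 at 162 µg at day 1, from 0 to 93 around 12 at 54 µg at day 1, from 65 to 600 around 146 at 162 µg at day 28 and from 0 to 1614 around 0 at 54 µg at day 28. For the trends the ranges were 299 to 3140 around 604 at day 1 and 53 to 639 around 118 at day 28, and for the difference between days 0 to 465 around 6 at 162 µg and 0 to 2819 around 0 at 54 µg. All these highest counts came with array quality weights. At 18 µg against control at day 1 and in its difference between days, 0 became 5 and 3 without muscle arrays. With median centring 168 genes rose and 1 fell at 162 µg at day 1, and 297 rose and 2 fell in the day 1 trend, against 521 and 83. It moved the median of all genes by 0.11 at 18 µg and 0.23 at 54 µg at day 1.

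No paired analysis was possible because the labels give no replicate number shared between groups (the slide as a block was fitted as a separate alternative). The number of mice, 3 or 4 a group, limits the precision, and signal over background excludes Slc7a11. The signals of Nqo1 and Gclm were low.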
